A study of Mus musculus with 12 samples.

Results

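Dppa5a, Tdgf1, Nr0b1, Nanog, Sall4, Dppa2 and Bex1 were followed over 12 whole-transcript microarrays of mouse embryonic fibroblasts. These 7 genes, out of 19938 measured, were chosen by their high values on a single array, that of cells given SKO and microRNA cluster C and lysed at day 8. No numerical threshold was set for the choice. Each gene was read through the probe set that the platform annotation gives to that gene alone, and through the brighter of the pair in the case of Dppa2. The label under which they were grouped, high with cluster C, held for all 7 on 1 of the 4 arrays with cluster C, the one that chose them. Nr0b1 and Bex1 had their second highest value on another of the 4, that with SKO at day 4.

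The fibroblasts came from a cross of OG2 with 129/sv mice, and OG2 mice carry a green fluorescent protein gene under Pou5f1 control. In 1 arm the cells received SKO with cluster C, with cluster B or with a blank control virus. The labels place SKO in the iPS process without spelling the letters out, and they are read here as the factors Sox2, Klf4 and Oct4. In the other arm, tagged Group2 in the titles, the cells received cluster C, cluster B or the blank virus and no SKO. Retroviruses carried the clusters, cells were kept in embryonic stem cell medium, and RNA was taken at day 8 and at day 4, counted from the first infection, after feeder cells had been removed. Each of the 12 combinations had 1 array, which leaves every condition without a replicate. Differences between the arms cannot be told apart from differences between the groups tagged in the titles. A description shared by all samples names another material and day than the titles do, and the titles were followed.

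Pluripotent cells hold their state through transcription factors that bind each other's genes, with Oct4, Sox2 and Nanog at the centre and chromatin proteins, growth factor receptors and RNA-binding proteins around them. In fibroblasts the genes at that centre are silent, while some others of the network are expressed. When factors are forced on fibroblasts, fibroblast genes fall first and the cells' own pluripotency genes come on late and in few cells. MicroRNAs of the Mir302 family are abundant in embryonic stem cells and are known to help reprogramming.

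The microRNA probe sets show which virus the arrays carried, and the mature sequences are given because they are what cluster C adds to the cells. Mir302b stood at 7.15 at day 8 and 7.08 at day 4 with SKO and cluster C, at 2.86 and 5.82 with cluster C and no SKO, and at 1.51 to 2.32 on the 8 arrays without cluster C. Mir367 was at 4.81 and 4.01 with SKO and cluster C, and at 2.02 and 3.43 with cluster C and no SKO, where the day 8 value lay within the 1.29 to 2.13 of the arrays without cluster C. With no SKO the cluster C signal was thus weak at day 8. Mir363 marked cluster B, at 5.13 and 5.36 with SKO and 3.08 and 3.98 without it at day 8 and day 4, against 1.82 to 2.63 on the other arrays. Capitals mark the seed, bases 2 to 8, in mature sequences from RefSeq on GRCm38.p6, read from the plus strand of chromosome 3 between 127545275 and 127545800. The first pair share their seed and miR-367 has another.
mmu-miR-302b-3p: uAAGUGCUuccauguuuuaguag
mmu-miR-302d-3p: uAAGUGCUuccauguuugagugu
mmu-miR-367-3p: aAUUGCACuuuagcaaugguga

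Promoter sequences were at hand in RefSeq for 4 of the 7 genes, Nanog, Tdgf1, Nr0b1 and Bex1, each covering 250 bases before and 50 after a transcript start. They are shown because the factors delivered with SKO are DNA-binding proteins and several of the genes moved together. Both strands were searched for 3 motifs, and capitals mark the matches. The Sox-Oct pair was CATTGT followed after 1 base by ATGCAAA, the Klf box GGGNGTGG, and the TATA box TATAAA. No motif overlapped another in the sequences shown. The Nanog window lies at chr6:122707315-122707614 on the plus strand, the Tdgf1 window at chr9:110946109-110946408 on the minus strand and the Nr0b1 window at chrX:86191525-86191824 on the plus strand, all on GRCm38.p6.
Nanog: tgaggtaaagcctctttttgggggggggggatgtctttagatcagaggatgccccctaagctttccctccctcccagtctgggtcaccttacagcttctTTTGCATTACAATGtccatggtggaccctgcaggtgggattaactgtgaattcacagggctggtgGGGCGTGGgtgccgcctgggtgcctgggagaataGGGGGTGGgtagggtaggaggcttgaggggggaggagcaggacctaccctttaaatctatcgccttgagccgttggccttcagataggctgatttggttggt
Tdgf1: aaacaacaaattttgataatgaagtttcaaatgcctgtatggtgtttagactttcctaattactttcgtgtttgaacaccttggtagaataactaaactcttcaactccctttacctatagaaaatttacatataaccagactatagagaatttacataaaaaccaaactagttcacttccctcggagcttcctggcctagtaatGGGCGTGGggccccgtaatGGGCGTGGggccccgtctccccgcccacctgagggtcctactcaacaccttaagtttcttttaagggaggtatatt
Nr0b1: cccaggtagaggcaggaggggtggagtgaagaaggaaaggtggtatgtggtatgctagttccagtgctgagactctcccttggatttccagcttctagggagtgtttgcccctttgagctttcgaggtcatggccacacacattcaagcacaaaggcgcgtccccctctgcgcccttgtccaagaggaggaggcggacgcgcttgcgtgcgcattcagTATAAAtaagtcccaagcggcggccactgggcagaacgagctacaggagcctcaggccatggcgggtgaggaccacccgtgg

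Nanog held the Sox-Oct pair on the minus strand, with the match beginning at position -151 from this transcript start. That exact string was found in 2 of 32851 promoters (0.00609%), both of them overlapping Nanog windows. Its parts were common, CATTGT being in 12.6% and ATGCAAA in 4.63% of promoters. Pairs with other letters were not searched for. The count therefore holds for this string only, and how rare Sox-Oct pairs are among promoters was not tested. Klf boxes began at -86 and -52 in Nanog, and at -45 and -26 in Tdgf1. That motif was present in 17.6% of all promoters. Nr0b1 had a TATA box at -32, a motif held by 13.6% of promoters, and neither of the other motifs. The Bex1 window, chrX:136215464-136215763 on the minus strand, held none of the 3. These are matches of letters, and binding was not measured.

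The array that chose the genes is described first, without a test. With SKO and cluster C at day 8, Dppa5a, which encodes an RNA-binding protein of early embryos and embryonic stem cells, was at 10.22 on the log2 scale. It was at 6.82 with SKO and cluster B and at 6.61 with SKO and blank virus on the same day. Tdgf1, a membrane-anchored co-receptor for the ligand Nodal, was at 9.37, against 6.18 with cluster B and 5.61 with blank virus. Nanog, the homeodomain factor at the core of the network, was at 8.08, against 6.39 with cluster B and 6.34 with blank virus. On the linear scale, cluster C over blank virus came to 12.2-fold for Dppa5a, 13.5-fold for Tdgf1 and 3.33-fold for Nanog.

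Nr0b1, a nuclear receptor with no known ligand that is used in embryonic stem cells, adrenal gland and gonads, was at 7.35 on this array, against 4.54 with SKO and cluster B and 4.45 with SKO and blank virus. Bex1, a small X-linked gene best known from neurons, was at 5.90, against 3.55 with cluster B and 3.59 with blank virus. Sall4, a zinc finger transcription factor that works with Oct4 and Nanog, was at 6.24, against 4.75 with cluster B and 4.51 with blank virus. Dppa2, a chromatin protein that pairs with Dppa4, was at 5.37, against 3.04 with cluster B and 3.32 with blank virus. The second probe set of Dppa2 read 3.86, against 2.33 and 2.24, and so lay higher on this array too. Whether either probe set lies at the Dppa2 gene or at a copy of it elsewhere was not settled. For all 7 genes this array held the highest of the 12 values, with a margin over the next array between 1.49 for Sall4 and 3.40 for Dppa5a.

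**Figure D1:**
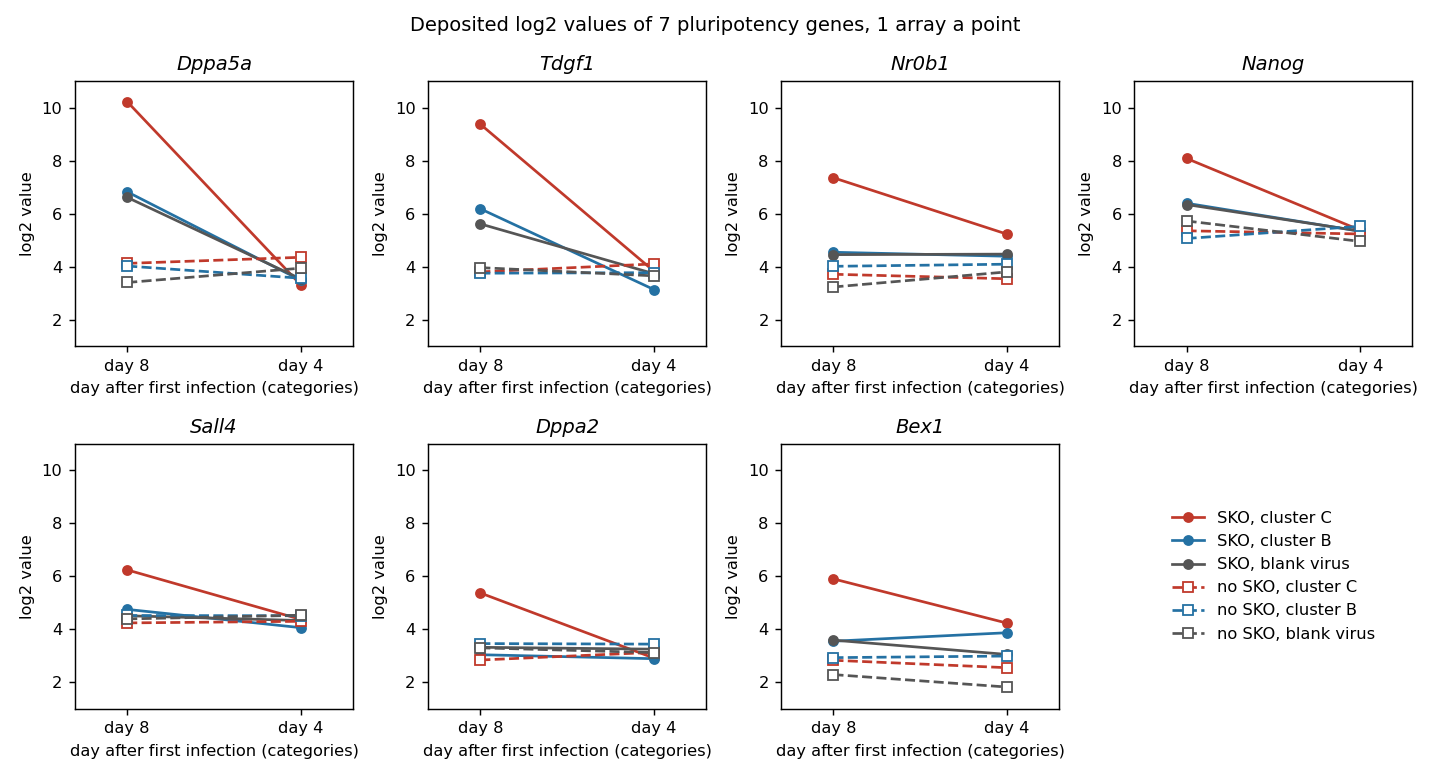
Deposited log2 values of the 7 genes on each of the 12 arrays, day 8 left of day 4, filled circles for cells with SKO and open squares for cells without, colours for the virus, 1 array a point. The red filled point at day 8 is the highest in every panel, and Dppa5a and Tdgf1 with SKO and either other virus also lie above their day 4 values.

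Since these values chose the genes, the counts that follow are a description and support nothing. Each of the 7 lay more than 1 log2 unit above SKO with blank virus, as did 0.391% of all genes, and above SKO with cluster B, as did 0.306%. Both held for 43 genes, 0.216% of those measured, among which are the 7 and the 5 probe sets of Mir302 and Mir367. The median difference from blank virus was 2.31 for the 7 and -0.02 for all genes. This array held the highest of the 12 values for 8.23% of all genes.

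By the difference from the mean of both other SKO arrays of that day, Mir302b (5.11), Mir302a (3.91), Mir302d (3.61) and Mir302c (3.53) ranked first, and Dppa5a (3.50) and Tdgf1 (3.47) came next, at ranks 5 and 6. Nr0b1 was at rank 8, Bex1 at 10, Dppa2 at 12, Nanog at 19 and Sall4 at 21. Genes outside the 7 lay among them: Mir367 (3.15), Gm6083 (2.59), Zfp600 (2.33), Fam169a (2.16), the glucose transporter gene Slc2a3 (1.97) and Zfp640 (1.96). The 7 are therefore pluripotency genes among the highest on that array, and not the whole of what was high there.

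**Figure D2:**
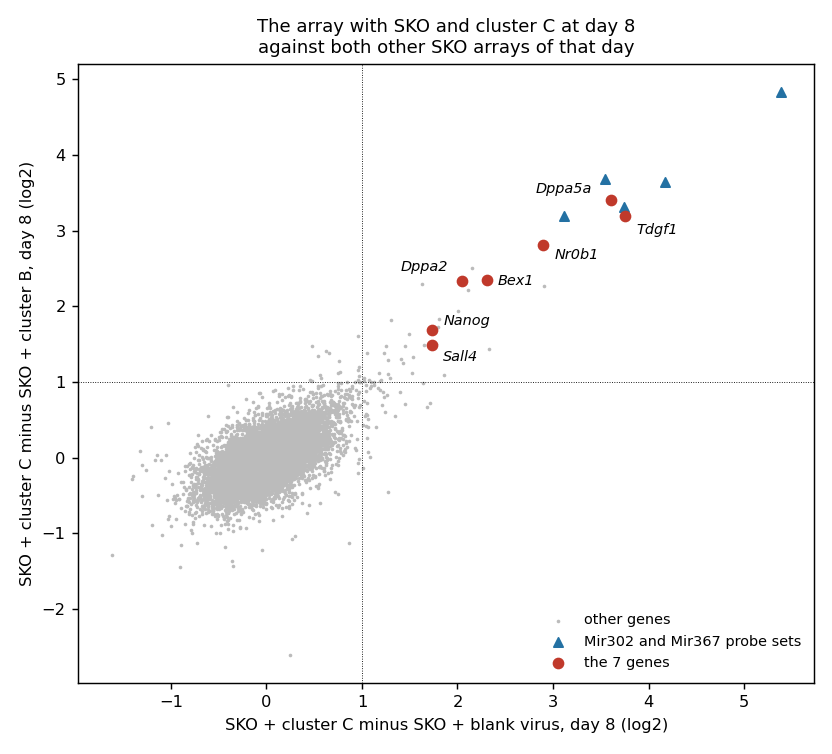
For 19938 genes, the log2 difference of the SKO cluster C array of day 8 from SKO with blank virus (horizontal) and from SKO with cluster B (vertical), with dotted lines at 1. The 7 genes lie past both lines, near the 5 microRNA probe sets and apart from the bulk of genes around 0.

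Fibroblast markers lay slightly lower on the same array than on both other SKO arrays of that day. Of the 11 markers, among them the collagen genes Col1a1 and Col3a1 and the PDGF receptor genes, 11 were lower than on both. Their median difference from the mean of both was -0.29, against -0.02 for all genes. The share of all genes lower than both was not counted. Some gaps were small, as for Thy1, at 8.54, against 8.59 with SKO and cluster B and 8.71 with SKO and blank virus. The mean log2 level of the 11 markers was 9.66 with SKO and cluster C at day 8, 9.68 to 9.94 on the other 5 SKO arrays and 10.58 to 10.81 without SKO. It was about as low with SKO at day 4, at 9.68 with cluster C and 9.71 with cluster B. Fibroblast transcripts thus remained abundant on every array. Neuronal markers, read because Bex1 is a gene of neurons, had a mean level of 5.02 on this array, 4.99 to 5.26 on the other SKO arrays and 4.88 to 5.10 without SKO. The steroidogenic cells that use Nr0b1 had marker means of 3.79, of 3.62 to 3.81 and of 3.59 to 3.89 in the same order. Primitive endoderm, which shares Sall4 with the epiblast, gave 4.65, 4.56 to 4.83 and 4.79 to 5.08, and germ cell markers gave 3.27, 3.16 to 3.33 and 3.16 to 3.49. Trophoblast markers reached 4.63, against 4.10 to 4.52 on the other SKO arrays and 4.27 to 4.52 without SKO, but they did not move together: 4 of 6 were higher than on both other SKO arrays of day 8 and 2 were lower. Tfap2c was at 5.38, against 4.52 with SKO and cluster B and 4.16 with SKO and blank virus, and Cdx2 at 3.83, against 4.56 and 4.24. Leukocyte markers gave 4.89, 4.79 to 5.07 and 4.73 to 5.18. The part of other cell types in the 7 genes was not tested. In RNA from a whole culture, more cells that use a gene and more RNA of it in each cell cannot be told apart.

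The remaining 11 arrays did not choose the genes through their own height, and all tests below were made on them with limma, leaving out the SKO cluster C array of day 8. The SKO arrays of day 8 with cluster B and with blank virus were what that array stood out from, and a low value on them helped a gene to be chosen. Differences are on the log2 scale with their SE, which takes its spread from how far a virus difference varied between the days. Calls were made at 0.05 on the Benjamini-Hochberg adjusted p over all 19938 genes.

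The first question was whether SKO changed the 7 genes. At day 8, where cluster B and blank virus were compared in both arms, SKO raised 5 of the 7 relative to no SKO, and 10.4% of all genes were called higher and 8.59% lower in that comparison. Dppa5a was higher by 3.04 ± 0.21 (SE, 2 arrays against 2; limma adjusted p = 5.75e-05) and Tdgf1 by 2.12 ± 0.25 (adjusted p = 0.000804). The fit estimates the no SKO level of day 8 from all 6 arrays of that arm, so these are not plain differences of 2 arrays against 2. Without SKO, Dppa5a ran over the 6 arrays from 3.40 through a median of 3.98 to 4.35, and Tdgf1 from 3.65 through 3.78 to 4.10. Nanog was higher by 0.98 ± 0.24 (adjusted p = 0.0247), Bex1 by 0.95 ± 0.21 (adjusted p = 0.0149) and Nr0b1 by 0.79 ± 0.17 (adjusted p = 0.0157). Nanog without SKO ran from 4.95 through 5.29 to 5.72. With SKO at day 8 it read 6.34 with blank virus and 6.39 with cluster B.

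Sall4 and Dppa2 did not pass at day 8. Sall4 differed by 0.17 ± 0.14 (limma adjusted p = 0.441) and Dppa2 by -0.13 ± 0.14 (adjusted p = 0.543). Sall4 without SKO ran from 4.24 through 4.45 to 4.53, and Dppa2 from 2.84 through 3.22 to 3.46, both overlapping the SKO arrays other than the one that chose them. Dppa2 lay under the lower quartile of its array on 11 of 12 arrays, where a change of a dim gene is hard to see. Of 11 fits that left out 1 more array, the one without SKO and cluster C at day 4 repeats the main fit here. Some others gave equal results in pairs, so the 11 are not all separate checks. The calls of Dppa5a and Tdgf1 held in each of the 11. Those of Nanog, Bex1 and Nr0b1 did not: without the SKO blank virus array of day 8 the differences were 1.02, 0.52 and 0.88 (adjusted p = 0.2, 0.29 and 0.128), without cluster B and no SKO at day 8 those of Nanog and Bex1 were 0.60 and 0.77 (adjusted p = 0.098 and 0.0816), and without SKO and cluster B at day 8 those of Nanog and Nr0b1 were 0.95 and 0.71 (adjusted p = 0.168 and 0.158). Under a minimum change of 1.5-fold, Nanog, Bex1 and Nr0b1 lost their calls (adjusted p = 0.878, 0.767 and 1). Nr0b1 was also lost without the blank virus array of day 8 with no SKO (0.53, adjusted p = 0.0821), and Nanog without either array of cluster C and no SKO (0.98, adjusted p = 0.0506).

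At day 4 the picture was another. SKO raised Bex1 by 1.26 ± 0.18 (SE, 3 arrays against 3; limma adjusted p = 0.00187) and Nr0b1 by 0.89 ± 0.15 (adjusted p = 0.00454), 2 of the 7, and none passed as lower. Among all genes 9.48% were called higher and 9.22% lower. Bex1 was at 4.23 with SKO and cluster C, 3.87 with SKO and cluster B and 3.05 with SKO and blank virus, against 2.55, 2.99 and 1.82 without SKO in the same order. Bex1 lay under the lower quartile of its array on 7 of 12 arrays, among them all 6 without SKO, so the size of its difference rests on dim values, and the filter on dim genes left it untested. Nr0b1 was at 5.22, 4.39 and 4.47 with SKO, against 3.54, 4.09 and 3.80 without SKO. Its highest day 4 value was the one with cluster C. Without that array the difference of Nr0b1 was 0.57 (adjusted p = 0.0685), and with the array that chose the genes put back its adjusted p was 0.124. With a minimum change of 1.5-fold neither passed (adjusted p = 0.076 for Bex1 and 0.679 for Nr0b1). Of the 11 fibroblast markers, SKO lowered 7 at day 4 and 6 at day 8. Of the 7 neuronal markers, 1 was higher with SKO on both days, Stmn2, by 2.11 at day 4 and 1.91 at day 8, while Map2 was lower on both days and Snap25 at day 8. The part of such cells in the Bex1 difference was not tested.

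The genes that SKO raised most at day 8 were not above no SKO at day 4. With SKO at day 4, Dppa5a was at 3.30 with cluster C, 3.48 with cluster B and 3.53 with blank virus, against 4.35, 3.56 and 3.94 without SKO, all of them above the SKO arrays. Its difference of -0.51 ± 0.18 missed the threshold (limma adjusted p = 0.0905). Tdgf1 was at 3.82, 3.13 and 3.73 with SKO, against 4.10, 3.77 and 3.65 without. Nanog was at 5.37, 5.33 and 5.34 with SKO, against 5.23, 5.52 and 4.95 without, a difference of 0.11 ± 0.20 (adjusted p = 0.762). Sall4 differed by -0.19 and Dppa2 by -0.21 (adjusted p = 0.353 and 0.279).

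**Figure D3:**
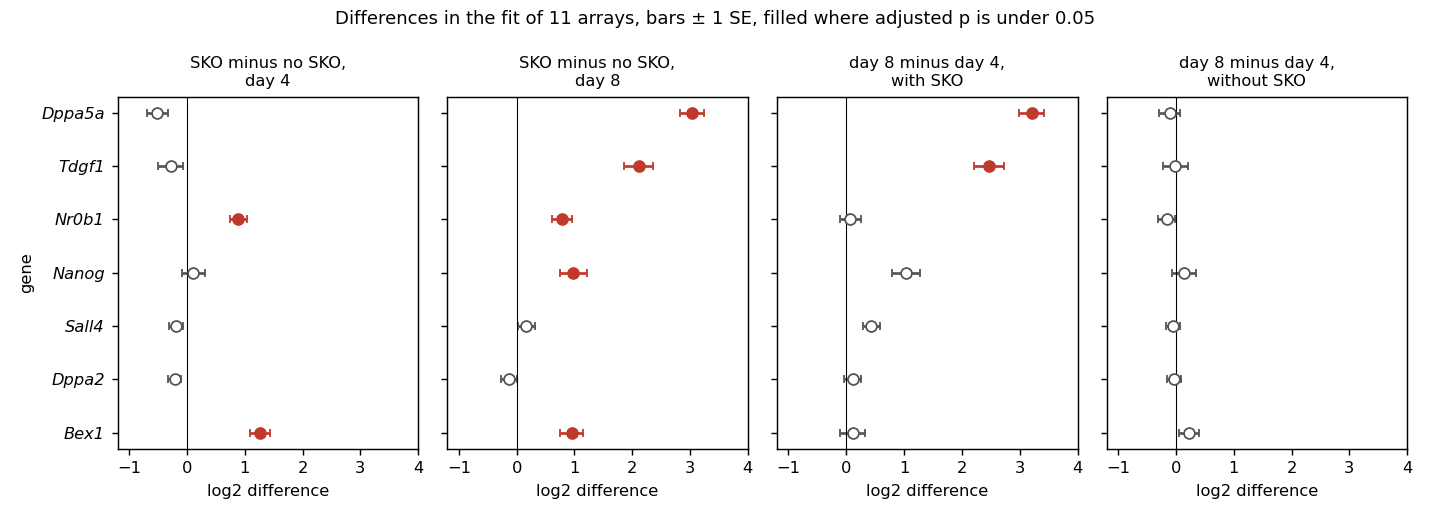
Log2 differences of the 7 genes in the fit of 11 arrays for SKO minus no SKO at day 4 and at day 8 and for day 8 minus day 4 with and without SKO. Points are estimates, bars ± 1 SE, filled where the limma adjusted p is under 0.05. Bex1 and Nr0b1 are filled at both days for SKO, Nanog for SKO at day 8, and Dppa5a and Tdgf1 for SKO at day 8 and for the day change with SKO.

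Day 8 was then set against day 4 within each arm. With SKO, Dppa5a was higher at day 8 by 3.20 ± 0.22 (SE, 2 arrays against 2; limma adjusted p = 0.000679) and Tdgf1 by 2.46 ± 0.26 (adjusted p = 0.00319). These 2 of the 7 passed as higher, beside 2.95% of all genes, and none as lower, beside 1.81%. Dppa5a gained 3.33 with cluster B and 3.08 with blank virus, and Tdgf1 gained 3.04 and 1.88. Nanog with cluster B stood at 6.39 at day 8 and 5.33 at day 4, and with blank virus at 6.34 and 5.34, an estimate of 1.03 ± 0.25 that missed the threshold (adjusted p = 0.0611). Sall4 gained 0.69 and 0.18, an estimate of 0.43 ± 0.15 (adjusted p = 0.167). Nr0b1 (0.07 ± 0.18), Dppa2 (0.11 ± 0.15) and Bex1 (0.11 ± 0.21) had adjusted p of 0.908, 0.774 and 0.858.

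Without SKO none of the 7 passed in either direction, beside 3.74% of all genes called higher and 4.14% lower. Bex1 had the largest estimate, 0.23 ± 0.18 (SE, 3 arrays against 3; limma adjusted p = 0.464). The difference between the arms in the day change was itself tested. It passed for Dppa5a, 3.31 ± 0.28 (adjusted p = 0.00432), and for Tdgf1, 2.47 ± 0.34 (adjusted p = 0.0164), beside 0.883% of genes called higher and 0.466% lower. For Nanog it was 0.89 ± 0.32 (adjusted p = 0.263) and for Sall4 0.49 ± 0.19 (adjusted p = 0.298). Without either cluster B array with SKO, which leaves 1 SKO pair of days, neither Dppa5a (3.18, adjusted p = 0.0558) nor Tdgf1 (1.89, adjusted p = 0.0853) passed. Dppa5a also missed without either SKO blank virus array (3.44, adjusted p = 0.0535), and Tdgf1 without either cluster B array (2.46, adjusted p = 0.053) or either cluster C array (2.32, adjusted p = 0.0627) of cells with no SKO.

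Cluster C was read apart from the array that chose the genes. With no SKO, cluster C against blank virus called 0 of 19938 genes with limma (0% higher and 0% lower), while 441 genes had an unadjusted p under 0.05 as higher and 518 as lower. Bex1 differed by 0.64 ± 0.21 (SE, 2 arrays against 2), being 2.83 and 2.55 with cluster C and 2.29 and 1.82 with blank virus at day 8 and day 4. Dppa5a differed by 0.56 ± 0.22, being 4.12 and 4.35 with cluster C and 3.40 and 3.94 with blank virus. Both have an adjusted p of 1. Tdgf1 (0.14), Nr0b1 (0.11), Nanog (-0.04), Sall4 (-0.19) and Dppa2 (-0.22) had an adjusted p of 1 as well. The cluster C microRNA probe sets were weaker in these cells at day 8, as given above.

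With SKO at day 4, cluster C rests on 1 array. Taken directly, it differed from SKO with blank virus on that day by 1.17 for Bex1, 0.75 for Nr0b1 and 0.09 for Tdgf1. The fit estimates the blank virus level from the SKO arrays with blank virus and cluster B on both days, and it gave 0.96 ± 0.28 for Bex1 and 0.80 ± 0.24 for Nr0b1, both with a limma adjusted p of 0.653. Its estimates for the other 5 lay between -0.32 (Dppa2) and 0.38 (Tdgf1). Again 0 genes passed, with 737 higher and 581 lower at an unadjusted p under 0.05. Mir302b was about as high on this array as at day 8, and the other 4 probe sets of cluster C were lower, Mir302a at 6.19 at day 8 and 5.11 at day 4. On the same array Dppa5a, Tdgf1, Nanog, Sall4 and Dppa2 read 3.30, 3.82, 5.37, 4.37 and 2.91. Cluster B with SKO called none of the 7 relative to blank virus, and 1 gene of all as lower (0.00502%). The unadjusted p was under 0.05 for 256 genes as higher and 415 as lower. Its estimates for the 7 lay between -0.32 for Dppa2 and 0.39 for Bex1, and Nanog (0.02 ± 0.25), Nr0b1 (0.00 ± 0.18) and Tdgf1 (-0.01 ± 0.26) were close to 0.

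The 7 genes thus had 3 profiles outside the array that chose them. Dppa5a and Tdgf1 were high with SKO at day 8 under both cluster B and blank virus. Nr0b1 and Bex1 were above no SKO at both days and showed no day change that passed. Sall4 and Dppa2 passed in none of the comparisons, and Nanog passed only for SKO at day 8. In the order of levels, the SKO cluster C array of day 8 came first for each gene. The next for Nr0b1 was SKO with cluster C at day 4 (5.22), followed by the SKO arrays between 4.39 and 4.54, which lie within the moderated SD of 0.18 of each other. For Bex1 the next was again SKO with cluster C at day 4 (4.23), then the SKO arrays between 3.05 and 3.87, the lowest of which lay next to the highest without SKO (2.99). For Dppa5a and Tdgf1 the next were both other SKO arrays of day 8, apart by about the SD of 0.22 in Dppa5a and by more than the SD of 0.26 in Tdgf1. For Nanog they were the same arrays, 6.39 and 6.34, followed by blank virus without SKO at 5.72. For Dppa2 the next was cluster B without SKO (3.46).

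The wider pluripotency network was read from a list of 34 genes, of which 32 were measured and which includes the delivered factors. On the array that chose the 7, 27 of the 32 lay above SKO with blank virus, with a median of 0.41, against -0.02 for all genes. More than 1 log2 unit above both other SKO arrays of day 8 were 5 of the 32, beside 0.216% of all genes. Utf1, a chromatin protein gene, was at 5.96, against 4.53 with cluster B and 3.63 with blank virus. Dnmt3l, a cofactor of DNA methylation, was at 5.34, against 3.51 and 3.53. Sox2 was at 7.55, against 6.04 and 5.77. The nuclear receptor gene Esrrb was at 5.28, against 3.80 and 4.03, and the DNA methyltransferase gene Dnmt3b at 5.98, against 4.67 and 4.57. Whether the Sox2 probe set reads the delivered gene is not known here.

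Some other network genes were high with SKO and stood little higher with cluster C, and others stood between. In the fit of 11 arrays SKO raised 13 of the 32 at day 8 and lowered 3, with a median of 0.00 against -0.07 for all genes, of which 10.4% were called higher and 8.59% lower. At day 4 the counts were 12 and 3, beside 9.48% and 9.22% of all genes. The raised genes on both days include Pou5f1, Klf4 and Sox2, and whether their probe sets read the delivered genes is not known here. L1td1, an RNA-binding protein gene, was higher with SKO at day 8 by 3.19 (limma adjusted p = 1.07e-05), yet read 7.92 with SKO and cluster C, against 7.63 with cluster B and 7.78 with blank virus. The transcription factor gene Tfcp2l1 was higher by 2.78 (adjusted p = 8.74e-06) and read 7.49, against 7.30 and 7.15. Upp1, a pyrimidine salvage enzyme gene, was higher by 3.59 (adjusted p = 7.32e-06) and read 7.62, against 7.39 and 7.41. Fbxo15, an F-box gene of embryonic stem cells, was higher by 4.01 (adjusted p = 1.42e-05) and read 7.87, against 7.26 and 6.98, and Rif1 was higher by 1.19 (adjusted p = 0.000941) and stood 0.91 above cluster B and 0.75 above blank virus. The 3 that SKO lowered were Klf2, Klf5 and Lin28a. With SKO, 5 of the 32 were higher at day 8 than at day 4 and 0 were lower, beside 2.95% and 1.81% of all genes: Fbxo15 (2.21), Tfcp2l1 (1.54), Gdf3 (1.37), Upp1 (0.79) and Zfp42 (0.68).

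**Figure D4:**
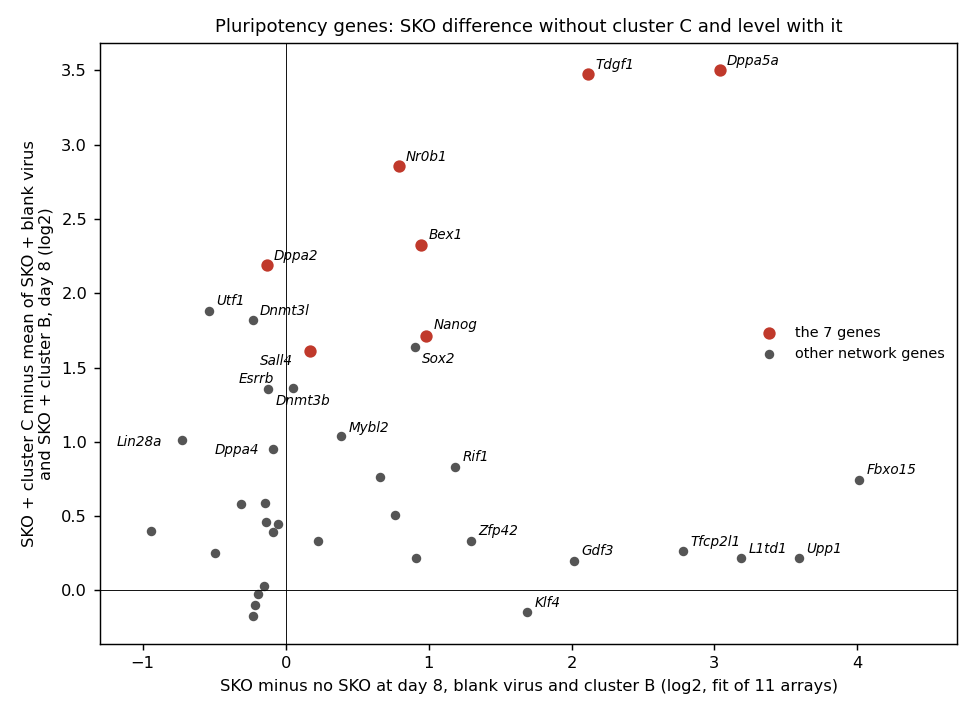
For the 7 genes (red) and the other measured network genes (grey, Pou5f1 left out as delivered and off the scale), the SKO minus no SKO difference at day 8 without cluster C (horizontal, log2) against the height of the array with SKO and cluster C over the mean of the other SKO arrays of that day (vertical, log2). L1td1, Upp1 and Tfcp2l1 lie far right and low, Dppa2, Utf1 and Dnmt3l near or left of 0 and high, and Dppa5a and Tdgf1 high on both axes. Both axes use the same SKO arrays with blank virus and cluster B.

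Tdgf1 acts in Nodal signalling, and the rest of that pathway was read from a list of 17 genes, 15 of them measured. Lefty2, a secreted Nodal inhibitor and target gene, was at 5.01 with SKO and cluster C at day 8, against 3.90 with cluster B and 3.49 with blank virus. Lefty2 was the only 1 of the 15 more than 1 log2 unit above both, as were 0.216% of all genes. Its relative Lefty1 was at 5.30, against 4.72 and 4.86. Nodal itself was at 4.94, against 4.91 and 4.81, and the receptor gene Acvr2b at 5.37, against 5.11 and 4.83. In the fit of 11 arrays, SKO at day 8 raised 2 of the 15, the ligand gene Gdf3 by 2.02 (limma adjusted p = 3.04e-05) and the protease gene Pcsk6 by 0.66 (adjusted p = 0.0203), and lowered 0. That count is near the background, 10.4% of all genes being called higher. The median of the list was 0.06, against -0.07 for all genes.

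Paralogs and partners of the 7 were read for shared behaviour, 14 of 15 being measured. Dppa4, the partner of Dppa2, was at 5.44 on the array that chose the genes, against 4.31 with SKO and cluster B and 4.68 with SKO and blank virus. Its second probe set read 4.06, against 1.72 and 2.02, and 3.02 with SKO and cluster C at day 4. As for Dppa2, whether these probe sets lie at the Dppa4 gene or at a copy of it was not settled. Bex4 was at 4.45, against 2.82 and 2.96, while Bex2 was at 3.81, against 3.32 and 3.39, and Bex3 at 5.26, against 4.94 and 5.13. Members of this family resemble each other in sequence, and whether their probes cross-react was not tested. Ooep, an oocyte gene of the same protein class as Dppa5a, was at 6.22, against 4.75 and 4.77. Sall1 was at 5.71, against 5.31 and 5.34, and Sall2 at 3.32, against 3.33 and 3.29. Nr0b2 was somewhat higher, at 3.65, against 3.07 and 3.11, and Cfc1, the relative of Tdgf1, slightly lower, at 4.40, against 4.64 and 4.56. In the fit of 11 arrays, SKO at day 8 raised Bex4 by 0.83 (limma adjusted p = 0.00818) and lowered Sall3 (-0.535, adjusted p = 0.0484).

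Genes with the most similar pattern were found by Pearson's r with the mean centred profile of the 7, over 5005 genes with an SD of at least 0.3. Over all 12 arrays the nearest were Gm6083 (r = 0.974), Slc6a14 (0.967), Lrrc34 (0.964), the Polycomb cofactor gene Jarid2 (0.955), Septin1 (0.953), the receptor kinase gene Kit (0.952), the carbonic anhydrase gene Car2 (0.949), Slc2a3 (0.948), Bex4 (0.947) and the kinase gene Pim2 (0.942). These profiles include the array that chose the genes, on which Gm6083 was at 5.78 (against 3.51 with SKO and cluster B and 2.87 with SKO and blank virus) and Car2 at 6.60 (against 5.16 and 4.85). The r are a description, with no test. Between pairs of the 7 themselves, r ran from 0.67 to 0.98 over all 12 arrays. Over the 11 arrays without the array that chose the genes, it ran from -0.33 (Bex1 and Dppa2) to 0.95 (Tdgf1 and Dppa5a). The genes that follow are therefore near a mean that not all 7 share. Without that array the 10 nearest were Piwil2, a gene of the germline small RNA pathway (r = 0.987), Klk1b24 (0.985), Dmkn (0.979), Gm5886 (0.977), Klk1b5 (0.976), Fbp2 (0.974), Aldoc (0.973), Elmo1 (0.970), Dmgdh (0.969) and Dppa1 (0.968). No gene is in both sets of 10. On the array left out, genes of the second set lay on both sides of the other SKO arrays: Dmgdh was at 7.05, against 6.46 with SKO and cluster B and 6.18 with SKO and blank virus, Piwil2 at 6.08, against 5.60 and 5.31, and Aldoc at 8.55, against 8.83 and 8.69.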

How the data were processed

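Gene expression was measured on 12 arrays, 1 for each combination of SKO, virus and day. Values were deposited on the log2 scale, as their range (0.916 to 14.0) shows, for 28853 probe sets. Per the submitters' processing notes RMA and Partek were used, and no version is given. The genome build used by the authors is not given in the sources used here. Array medians lay between 4.98 and 5.07 and lower quartiles between 3.48 and 3.68, and the number of arrays limits precision.

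Gene names came from the platform's annotation (21789 probe sets with 1 gene, 1621 with several, 5443 with none). Those with 1 gene were kept, the brightest for each gene, giving 19938 genes with no filter on dim ones. Of the 21789, 21698 matched RefSeq of GRCm38.p6 by Entrez identifier and 0 symbols changed. Tests used limma 3.58.1 in R 4.3.3 on 11 arrays, with terms for SKO, day, virus, SKO by day and SKO by virus (3 residual and 4.89 prior degrees of freedom, median residual SD 0.143). The labels do not say whether cultures were independent, so p-values reflect only the spread within these arrays. The fit was tested on simulated data. Python 3.11.15, numpy 2.4.6, pandas 2.3.3 and matplotlib 3.10.9 made tables and figures.

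The members, lists and comparisons were chosen with earlier results of these data known. Named genes are the 7, the genes of the lists, the 10 others highest on the day 8 array and the 10 nearest by r with and without it. As alternatives, each array was left out in turn, all 12 arrays were fitted, the SKO by virus term was dropped, the variance was given a trend with robust shrinkage, arrays were quantile normalized or set to equal medians, genes never above 6 were removed, probe sets of a gene were averaged, and a change of at least 1.5-fold was required (treat).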

Additional observations from a re-analysis of the deposited data

Results flagged for a closer look

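Day 8 against day 4 differed between the arms for Dppa5a and Tdgf1 by the test of that difference in the limma fit of 11 arrays. The day change with SKO minus that without was 3.31 for Dppa5a (adjusted p = 0.00432) and 2.47 for Tdgf1 (adjusted p = 0.0164). Dppa5a rose in both SKO pairs of days, by 3.33 with cluster B and 3.08 with blank virus, and differed by -0.11 ± 0.18 (SE) without SKO. Tdgf1 rose by 3.04 and 1.88, and differed by -0.01 ± 0.21 without SKO.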

How the results depend on the processing

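For the 7 genes, no called difference changed sign under any alternative run. For SKO at day 4, the 2 calls became 1 with all 12 arrays (Bex1), 1 with the filter on dim genes, which leaves 3 of the 7 to test and calls Dppa5a lower, and 0 with a minimum change of 1.5-fold. A trended, robust fit also called Dppa5a lower there, where its values with SKO are dim, as given above. For SKO at day 8, the 5 calls became 3 with the dim filter, all 3 that it tests, and 2 with the minimum change. Dppa5a, Tdgf1 and Nanog exceed 6 only on SKO arrays of day 8. They pass the dim filter through the values compared, so their calls under it add no support. For the day change with minus without SKO, the 2 calls became 1 with the minimum change. Over fits that left out 1 array, calls ran from 1 to 3 for SKO at day 4, 2 to 5 for SKO at day 8, 2 to 3 for day 8 with SKO and 0 to 2 for the difference in day change. They were 0 throughout for day 8 without SKO and for the comparisons of clusters. Nanog passed for day 8 with SKO with the additive fit, the trended fit and the dim filter, which it passes only through its SKO values of day 8. It also passed with all 12 arrays, which include the array that chose the genes. Under quantile normalization, equal medians and the mean over probe sets, all 7 genes stayed more than 1 log2 unit above both other SKO arrays on the array that chose them. Fits that leave out an array have fewer degrees of freedom; whether that is why calls were lost was not tested. Over all genes, calls for SKO at day 4 numbered 3730 and with the minimum change 585, for SKO at day 8 3778 and 822, for day 8 with SKO 949 and 80, and for the difference in day change 269 and 32. The trended fit gave 2260 for the third and 1065 for the fourth, the dim filter 1903 and 780, all 12 arrays 1775 and 592, and the additive fit 454 for the fourth. For day 8 without SKO calls numbered 1572, against 3168 with the trend, 2802 with the dim filter, 1773 with equal medians and 85 with the minimum change. For cluster B with SKO the 1 call became 2 with all 12 arrays or the trend and 0 with quantile normalization, the dim filter or the minimum change, and for cluster C with SKO at day 4 the 0 calls became 4 with all 12 arrays and 7 with the trend. With 1 more array left out, calls over all genes ran from 1639 to 3756 for SKO at day 4, 1225 to 3778 for SKO at day 8, 84 to 949 for day 8 with SKO, 397 to 1572 for day 8 without SKO and 6 to 269 for the difference in day change. No paired analysis was possible because the labels give no replicate numbers and each condition has 1 array, although the virus terms of the fit set the days side by side within a virus. Another background correction was not run, since values were deposited after RMA.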

Other observations

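Genes next to the 7 in the RefSeq order of GRCm38.p6 were read after the values were seen, taking the 3 nearest measured protein-coding genes on either side of each, 42 in all. Of these, 3 lay more than 1 log2 unit above both other SKO arrays of day 8 on the SKO cluster C array, as did 0.216% of all genes. None of the neighbours lay as far below. Slc2a3, next to Nanog, was at 9.19, against 7.26 with SKO and cluster B and 7.18 with SKO and blank virus. Ooep, next to Dppa5a, and Bex4, the third gene from Bex1, are described above. The near side of Nanog did otherwise on that array: Gdf3 was at 7.08, against 7.04 and 6.73, Apobec1 at 7.48, against 7.41 and 7.26, and Dppa3 at 4.24, against 4.86 and 3.98.

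In the limma fit of 11 arrays, 7 of the 42 neighbours were higher at day 8 than at day 4 with SKO and 0 were lower, where 2.95% and 1.81% of all genes were. Gdf3 was higher by 1.37 (adjusted p = 0.00165), Morc1, a germline gene next to Dppa2, by 1.26 (adjusted p = 0.00631), Apobec1 by 0.93 (adjusted p = 0.0238), Slc2a3 by 0.87 (adjusted p = 0.0104), Ltf by 0.87 (adjusted p = 0.0145), Gsta4 by 0.82 (adjusted p = 0.0112) and Atp9a by 0.76 (adjusted p = 0.0287). Apobec1, Gdf3 and Slc2a3 all flank Nanog, whose own estimate of 1.03 missed the threshold. Morc1 stood at 5.94 with SKO and cluster C at day 8, against 5.57 and 5.53, while its neighbour Dppa2 was at 5.37, against 3.04 and 3.32. Whether the Dppa2 probe set lies at the gene next to Morc1 was not settled.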
